A study of Mus musculus with 10 samples.

Results

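Genes that encode chaperones of the endoplasmic reticulum (ER) and signal carriers of its unfolded protein response were followed in the left ventricle of 5 mice of the CKD (chronic kidney disease) group and 5 mice of the Sham group. All 10 mice were males of strain 129X1/SvJ, and the surgery entry of the labels was the only recorded difference between the groups; how CKD was produced and the age of the mice are not stated in the labels. The genes were taken by symbol, namely Hspa5, Hsp90b1, Pdia4, Pdia6, Calr, Canx, Dnajb9, Xbp1, Sdf2l1 and Herpud1. Of these 10 genes, 9 had an entry of their own among the 23303 entries of the table. Pdia4 shared its entry with the microRNA gene Mir704, which lies inside it, so it is described but left out of the counts. The values are FPKM, which scale fragments by transcript length and by the size of the library, so levels can be compared between genes. An entry can still fail to reflect its gene: the cardiomyocyte markers Myh6 and Atp2a2 were listed at 0 in all 10 libraries.

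Proteins that enter the ER fold there with the help of chaperones that hold unfolded chains, of lectins that bind their sugar chains, and of isomerases that form and exchange disulfide bonds. When unfolded chains accumulate, the sensors IRE1, PERK and ATF6 in the ER membrane signal to the nucleus: IRE1 splices the Xbp1 transcript so that it encodes an active factor, PERK slows translation and favours synthesis of ATF4, and ATF6 is cut to release a transcription factor. ATF6 and XBP1 act with the factor NF-Y on a composite promoter element, the ER stress response element (ERSE), and raise the synthesis of ER chaperones and of proteins of ER-associated degradation. In heart muscle this response has been studied in pressure overload, ischemia and heart failure.

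The promoter sequences are shown because the response is known to act on ER chaperone genes through that element. All 10 genes matched a RefSeq promoter of GRCm38.p6, from 250 bases before to 50 bases after the start site. The ERSE, searched as CCAAT and CCACG with 9 bases between them on either strand, was present in 5 of the 10 promoters and in 0.119% of all 32851 promoters of that length. The shorter ERSE-II, searched as ATTGG and CCACG with 1 base between them on either strand, was present in 1 of the 10 (Herpud1) and in 0.0365% of all. The ATTGG of ERSE-II is the reverse complement of the CCAAT of ERSE, and both elements end in CCACG. The 7 matches are printed in the orientation of the element, with the fixed letters in capitals.
Hspa5 ERSE: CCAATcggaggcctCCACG
Hsp90b1 ERSE: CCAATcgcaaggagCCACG
Hsp90b1 ERSE: CCAATcgtgcctcaCCACG
Pdia6 ERSE: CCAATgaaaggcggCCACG
Calr ERSE: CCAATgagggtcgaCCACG
Canx ERSE: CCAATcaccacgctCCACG
Herpud1 ERSE-II: ATTGGgCCACG

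Counted in bases from the start site along the gene, the match in Hspa5 began at -65, those in Hsp90b1 at -212 and -107, that in Pdia6 at -98, that in Calr at -162 and that in Canx at -145. The Calr match and the second Hsp90b1 match lay on the opposite strand. The ERSE-II of Herpud1 began at -52. Pdia4, Dnajb9 and Sdf2l1 held both CCAAT and CCACG, but not at the spacing of the whole element, and the 300 bases of Xbp1 held neither. Alone, these short motifs are common: CCAAT occurred in 37.4% and CCACG in 32.8% of all promoters. The UPRE core TGACGTGG, on either strand, was in none of the 10 promoters and in 0.676% of all.

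**Figure D1:**
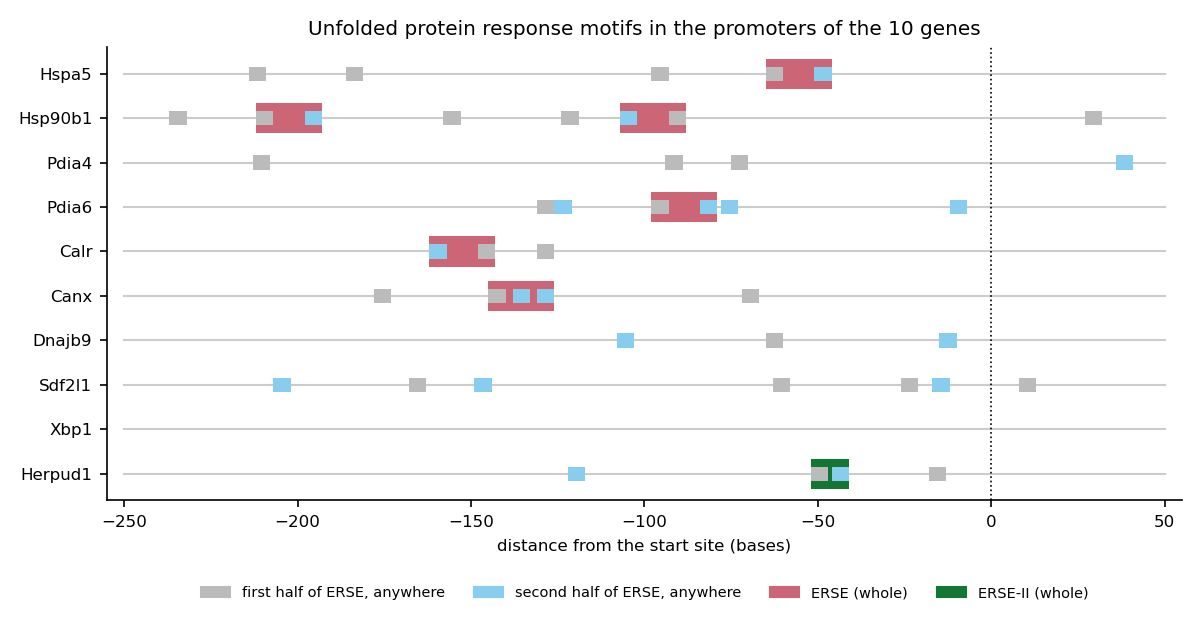
Position of the elements in the promoters of the 10 genes, drawn to scale against the distance from the start site in bases (dotted line at 0); tall bars are whole elements and short bars the CCAAT and CCACG motifs on either strand. The whole ERSE occurs in 5 genes, with 2 copies in Hsp90b1, ERSE-II occurs in Herpud1, and Xbp1 has neither short motif.

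Whole promoters are printed for the most abundant of the 10 transcripts (Hspa5), for a pair of ERSE genes that passed the test in some of the fits described further on (Canx and Pdia6), and for the gene that did not share their direction (Herpud1). Capitals mark the fixed letters of ERSE or ERSE-II.
Hspa5, chr2:34771840-34772139, plus strand: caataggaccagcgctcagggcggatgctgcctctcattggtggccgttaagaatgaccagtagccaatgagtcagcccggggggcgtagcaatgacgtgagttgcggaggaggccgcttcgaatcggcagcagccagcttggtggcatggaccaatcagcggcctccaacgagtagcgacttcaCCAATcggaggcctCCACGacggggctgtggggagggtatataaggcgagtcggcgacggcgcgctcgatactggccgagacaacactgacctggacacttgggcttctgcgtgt
Canx, chr11:50325624-50325923, minus strand: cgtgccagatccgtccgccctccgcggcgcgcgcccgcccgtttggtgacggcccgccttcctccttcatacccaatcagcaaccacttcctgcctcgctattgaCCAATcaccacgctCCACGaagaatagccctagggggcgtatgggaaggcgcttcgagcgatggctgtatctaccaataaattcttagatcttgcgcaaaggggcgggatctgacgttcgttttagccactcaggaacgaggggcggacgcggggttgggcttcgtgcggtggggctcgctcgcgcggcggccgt
Pdia6, chr12:17266339-17266638, plus strand: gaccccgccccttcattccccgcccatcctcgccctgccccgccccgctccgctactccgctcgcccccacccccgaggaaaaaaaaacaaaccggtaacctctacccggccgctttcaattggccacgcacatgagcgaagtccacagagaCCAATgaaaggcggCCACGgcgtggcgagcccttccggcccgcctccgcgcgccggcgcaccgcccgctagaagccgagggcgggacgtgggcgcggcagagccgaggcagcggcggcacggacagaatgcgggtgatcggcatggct
Herpud1, chr8:94386179-94386478, plus strand: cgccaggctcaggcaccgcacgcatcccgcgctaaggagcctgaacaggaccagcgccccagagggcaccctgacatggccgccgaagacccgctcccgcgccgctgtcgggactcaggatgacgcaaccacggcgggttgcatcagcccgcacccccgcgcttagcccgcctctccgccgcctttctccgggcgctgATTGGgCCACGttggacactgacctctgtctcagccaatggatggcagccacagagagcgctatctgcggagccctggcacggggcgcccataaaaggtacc

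CKD 1 and Sham 1 stood apart from the other 8 libraries in the steps between their low FPKM values and in the share of their most abundant genes. Among low values, where single reads give visible steps, 26.7% to 31.3% of the ratios between 2 of the other 8 libraries fell in a single bin of 0.01 (log2), against 1.13% to 1.74% for CKD 1 or Sham 1 against any of those 8, and 6.23% for CKD 1 against Sham 1. The 10 most abundant genes held 14.8% and 15.3% of the summed FPKM of CKD 1 and Sham 1, against 17.6% to 18.2% in the other 8 libraries. No label sets these 2 libraries apart, 1 is in each group, and whether they were sequenced or quantified differently was not tested. The comparisons of the 10 genes between groups are therefore also given without both of them. Cardiomyocyte markers summed to between 76776 and 96310 FPKM in each library, although Myh6 and Atp2a2 were listed at 0 in all 10. The labels give each mouse its own sample, and summed FPKM per library lay between 570509 and 605007.

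In the Sham ventricle the transcripts spanned a wide range of levels. Hspa5, which encodes BiP, the Hsp70-type chaperone of the ER that also binds the sensors, was highest at 348 ± 47.8 FPKM (SD, n = 5). Its mean over all 10 libraries, 321 FPKM, was above that of 97.7% of the tested genes. Calr (calreticulin), Hsp90b1 (GRP94) and Herpud1 followed at 194 ± 18.6, 186 ± 26.0 and 164 ± 28.4 FPKM, and their Sham ranges overlapped. Canx (calnexin) was at 100.1 ± 6.35, Pdia6 at 58.9 ± 6.03, Xbp1 at 37.8 ± 3.98, Dnajb9 at 32.2 ± 3.39 and the entry with Pdia4 at 18.7 ± 1.57 FPKM. Xbp1 was above Dnajb9 in all 5 Sham and all 5 CKD libraries although their ranges overlapped. Sdf2l1 was lowest at 6.80 ± 0.481 FPKM. The order held in CKD except for Herpud1, which was above Hsp90b1 in 4 of 5 CKD libraries and in 1 of 5 Sham libraries. The 9 genes with their own entries together took 0.191% ± 0.0121 of the summed FPKM in Sham and 0.171% ± 0.00928 in CKD, or 0.194% ± 0.0121 and 0.168% ± 0.00731 without CKD 1 and Sham 1 (SD, n = 4).

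**Figure D2:**
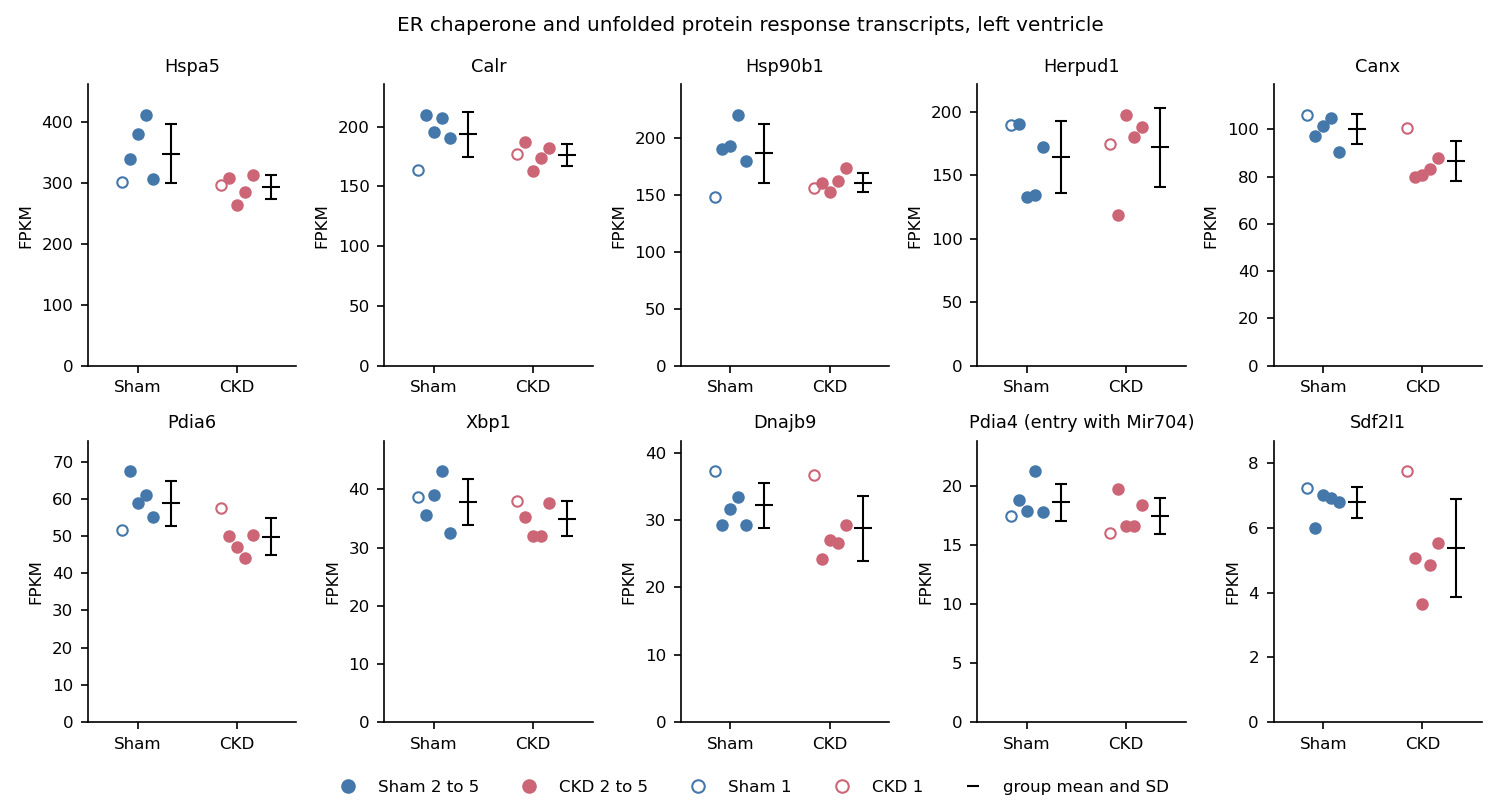
FPKM of each gene in the left ventricle of every mouse, with panels ordered by the Sham mean and each vertical axis starting at 0; open points are CKD 1 and Sham 1, and the bars are the group mean and SD (n = 5). For Hspa5 the CKD points lie between 263 and 313 FPKM and the Sham points between 301 and 412 FPKM; all 10 panels have overlapping groups.

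CKD against Sham asks how the left ventricle differs between the surgery groups of the labels. No gene of the 9 was called higher or lower with all 10 libraries, and 8 of the 9 differences were negative, with a median of -0.20 (log2 of FPKM + 0.5), beside a median of -0.0035 over all 11651 tested genes, of which 51.1% had a negative difference. Tested genes are those with a mean FPKM of at least 1, which kept all 9. The 0 calls are by limma's test at an adjusted p under 0.05, where 5.29% of the tested genes passed, 3.17% higher and 2.12% lower. At an unadjusted p under 0.05, 5 of the 9 were lower and 0 higher, against 9.03% and 10.5% of the tested genes. In bulk tissue, fewer cells of a type and less RNA per cell cannot be told apart.

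Without both CKD 1 and Sham 1, limma called 3 of the 9 lower, Canx, Hsp90b1 and Pdia6, where 2.14% of the tested genes were called lower and 2.62% higher. The median of the 9 was then -0.24, and 7 of the 9 were lower and 0 higher at an unadjusted p under 0.05, against 9.77% and 10.5% of the tested genes. The groups of 5 of the 9 then did not overlap, all lower in CKD (Hsp90b1, Pdia6, Calr, Canx and Sdf2l1), beside 6.46% of the tested genes without overlap on the lower and 6.60% on the higher side. With all 10 libraries the groups of all 9 overlapped, beside 3.18% and 4.10% of the tested genes without overlap. With all libraries and a term for those 2, it called 1 lower, Canx, where 4.11% were called lower and 4.92% higher. Weighting libraries by their fit called 4 lower, these 3 and Hspa5, where 3.43% were called lower and 4.39% higher. Leaving out CKD 1 alone gave 2 calls (Canx and Sdf2l1, with 2.22% of tested genes called lower and 2.77% higher), and leaving out Sham 1 alone gave 1 (Hsp90b1, with 1.66% and 2.44%). The other 17 of the 22 alternative fits called none of the 9 lower. Among them was every fit that left out a single library other than CKD 1 or Sham 1. In all 22 alternative fits, none of the 9 was called higher, and 8 of the 9 kept a negative difference. The exception was Herpud1.

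**Figure D3:**
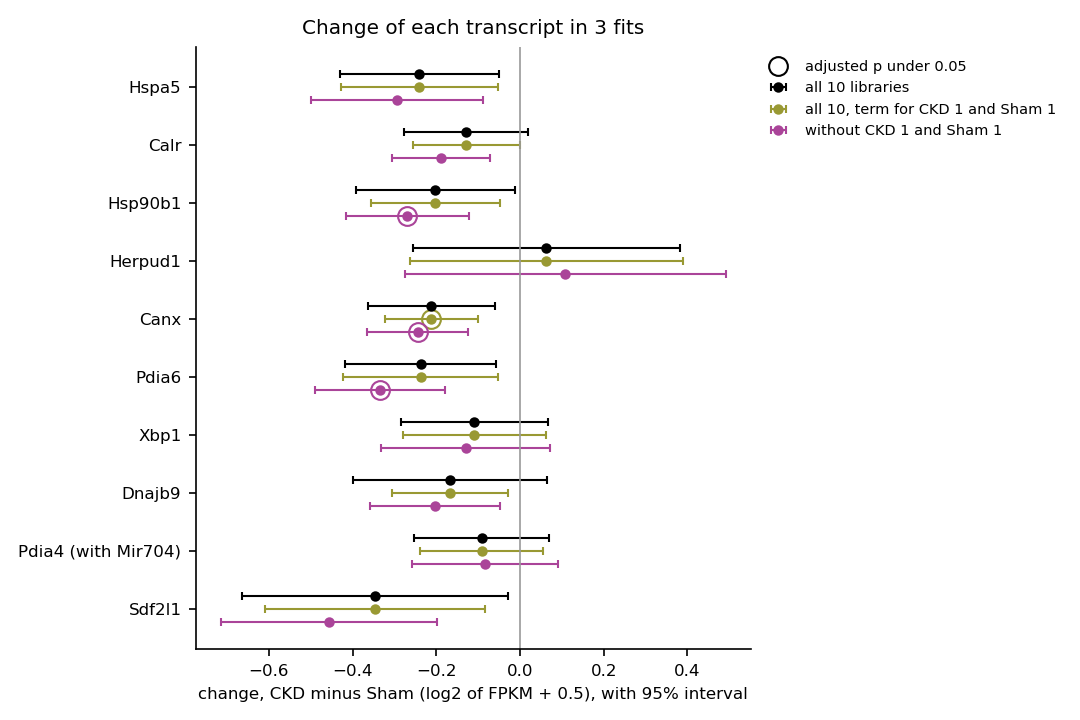
Difference between CKD and Sham of each gene (log2 of FPKM + 0.5, horizontal axis) with its 95% interval in 3 fits: all 10 libraries, the same with a term for CKD 1 and Sham 1, and without those 2 libraries; rings mark an adjusted p under 0.05. Every gene but Herpud1 lies left of 0 in all 3 fits, and the ringed values are Canx in both of the other fits and Hsp90b1 and Pdia6 without CKD 1 and Sham 1.

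Hspa5, on chromosome 2 from 34772090 to 34776529 (GRCm38), had 296, 308, 263, 284 and 313 FPKM in CKD 1 to 5, and 301, 340.0, 381, 412 and 307 FPKM in Sham 1 to 5. Of the 5 CKD values 3 lay below every Sham value, and the groups overlapped through CKD 2 and CKD 5 at the foot of the Sham range. The means were 293 ± 20.03 and 348 ± 47.8 FPKM, a difference of -0.24 (log2, SE 0.09), or -15.3% with a 95% interval from -25.8% to -3.46% that is not adjusted for the number of genes (adjusted p = 0.143). Without CKD 1 and Sham 1 the difference was -0.29 (adjusted p = 0.106), and between those 2 libraries alone it was -0.02.

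Hsp90b1, the ER member of the Hsp90 family (chromosome 10 from 86690841 to 86705444), had 156, 160.4, 152, 162 and 174 FPKM in CKD 1 to 5. In Sham 1 to 5 it had 148, 191, 193, 220.4 and 179 FPKM. Sham 1 was below all 5 CKD mice, and the other 4 Sham mice were above all 5 CKD mice. With all libraries the difference was -0.20 (SE 0.09, adjusted p = 0.225). Without CKD 1 and Sham 1 the groups did not overlap and Hsp90b1 fell by 0.27 (SE 0.07, adjusted p = 0.0489); the fit without Sham 1 alone gave an adjusted p = 0.0334. Hsp90b1 overlaps the antisense pseudogene 1810014B01Rik along 4598 bases, and no source used here says whether reads were counted by strand. On its own strand it overlaps the processed transcript Gm15344 along 977 bases and the microRNA gene Gm25745 along 133 bases, and how shared reads were assigned is not stated either.

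Dnajb9 encodes ERdj4, a J-domain cochaperone that acts with BiP, and lies on chromosome 12 from 44205897 to 44210068. Its FPKM were 36.8, 24.2, 27.1, 26.6 and 29.2 in CKD 1 to 5 and 37.3, 29.3, 31.7, 33.5 and 29.2 in Sham 1 to 5. CKD 1 and Sham 1 were the highest of their groups and close to each other, and 4 of the 5 CKD values were under the Sham mean. The difference was -0.17 (SE 0.11, adjusted p = 0.427) with all libraries and -0.20 (adjusted p = 0.134) without those 2.

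Sdf2l1, which forms a complex with ER cochaperones and slows the aggregation of unfolded proteins, had the largest negative difference of the 9 (chromosome 16 from 17130138 to 17132383). Its FPKM were 7.77, 5.07, 3.65, 4.86 and 5.54 in CKD 1 to 5 and 7.25, 5.99, 7.01, 6.93 and 6.82 in Sham 1 to 5. CKD 1 was above every Sham mouse, while the other 4 CKD mice were below every Sham mouse. The difference of -0.35 (SE 0.15, adjusted p = 0.213) was -0.46 without CKD 1 and Sham 1 (adjusted p = 0.0551) and -0.48 without CKD 1 alone (adjusted p = 0.0277). Its spread within groups was large, with 89.0% of the tested genes less variable.

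Calr and Canx encode calreticulin and calnexin, the soluble and the membrane-bound lectin chaperones that retain glycoproteins until they are folded. Calr (chromosome 8 from 84842088 to 84846931) had 177, 187, 163, 174 and 182 FPKM in CKD 1 to 5 and 164, 210.1, 196, 207 and 191 FPKM in Sham 1 to 5. Sham 1 lay inside the CKD range, and the other 4 Sham mice were above all 5 CKD mice. The difference was -0.13 (SE 0.07, adjusted p = 0.332) with all libraries and -0.19 (adjusted p = 0.0736) without CKD 1 and Sham 1.

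Canx (chromosome 11 from 50293957 to 50325673) had 100.6, 80.1, 80.8, 83.2 and 87.98 FPKM in CKD 1 to 5 and 106, 97.4, 101, 105 and 90.5 FPKM in Sham 1 to 5. CKD 1 was the sole CKD value inside the Sham range, and the other 4 were below it. The means were 86.5 ± 8.45 and 100.1 ± 6.35 FPKM, a difference of -0.21 (SE 0.07, adjusted p = 0.106), or -13.6% with a 95% interval from -22.3% to -4.08%. Canx fell by 0.24 without CKD 1 and Sham 1 (SE 0.05, adjusted p = 0.0369), and its adjusted p was 0.0277 with a term for those 2 libraries. Between CKD 1 and Sham 1 the difference was -0.08.

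Pdia6 and Pdia4 encode protein disulfide isomerases of the ER. Pdia6 (chromosome 12 from 17266589 to 17284785) had 57.5, 50.1, 47.1, 44.0 and 50.5 FPKM in CKD 1 to 5, and 51.8, 67.6, 58.8, 61.03 and 55.05 FPKM in Sham 1 to 5. The order of CKD 1 and Sham 1 was the reverse of that of the other 8 libraries, among which every CKD value was below every Sham value. The difference was -0.24 (SE 0.08, adjusted p = 0.129), and without those 2 libraries Pdia6 fell by 0.33 (SE 0.07, adjusted p = 0.0297). The entry that joins Pdia4 and Mir704 (Pdia4 on chromosome 6 from 47796141 to 47813512) ranged from 16.02 to 19.7 FPKM in CKD and from 17.4 to 21.3 FPKM in Sham. Its difference was -0.09 (SE 0.07, adjusted p = 0.556), without CKD 1 and Sham 1 it was -0.08 (adjusted p = 0.603), and it passed in none of the 22 alternatives.

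Xbp1 encodes the factor that IRE1 activates by splicing (chromosome 11 from 5520641 to 5525993). Spliced and unspliced transcripts share 1 entry, so the table does not show the extent of splicing. Its FPKM were 38.0, 35.3, 32.0, 31.9 and 37.7 in CKD 1 to 5 and 38.7, 35.7, 39.0, 43.2 and 32.6 in Sham 1 to 5, with both groups reaching down to about the same level. The difference was -0.11 (SE 0.08, adjusted p = 0.505), with a 95% interval from -17.9% to 4.74%, it was -0.13 without CKD 1 and Sham 1 (adjusted p = 0.470), and no alternative gave an adjusted p below 0.213.

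Herpud1, an ER membrane protein that serves ER-associated degradation, did not share the direction of the chaperones (chromosome 8 from 94386429 to 94395371). Its FPKM were 175, 119, 198, 180.3 and 188 in CKD 1 to 5 and 189, 191, 133, 134 and 172 in Sham 1 to 5. CKD 2, Sham 3 and Sham 4 were low and the other 7 libraries high, so each group held both kinds. The difference was 0.06 (SE 0.15, adjusted p = 0.872), its 95% interval ran from -16.3% to 30.4%, it was 0.11 without CKD 1 and Sham 1 (adjusted p = 0.786), and it turned to -0.0069 without Sham 3 and to -0.0033 without Sham 4. Of the tested genes, 90.3% were less variable within groups. Herpud1 overlaps the antisense gene Gm15890 along 535 bases.

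Over the 9 genes, the median deviation from the Sham mean was -0.22, -0.28, -0.26 and -0.13 (log2) in CKD 2 to 5 and 0.01 in CKD 1. In Sham 1 to 5 it was 0.04, -0.02, 0.02, 0.07 and -0.09. CKD 2 was below the Sham mean for 9 of 9 genes, CKD 3 and CKD 4 for 8, CKD 5 for 7 and CKD 1 for 4. Sham 1 to 5 were below it for 4, 5, 2, 1 and 7 of the 9, so Sham 5 equalled CKD 5 in this count. The highest CKD value of 5 of the genes was in CKD 1. Sham 1 held the highest Sham value of 3 genes and the lowest of 4.

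Genes whose levels followed a member most closely over the 10 libraries were found by Pearson correlation of log2 values, as a description of mice that differ in group as well as individually. For Hspa5 they were Gramd4 (r = 0.95), Cebpz (0.95) and Abca4 (0.93) among 11650 tested genes, which were in places 9, 11 and 31 over the 8 libraries without CKD 1 and Sham 1 (r = 0.95, 0.95 and 0.93), and Hsp90b1 was in place 10 (0.90). The r of Hspa5 with Calr, Xbp1, Pdia6, Canx, Sdf2l1 and Dnajb9 was 0.82, 0.77, 0.71, 0.63, 0.55 and 0.30. Over the 8 libraries without CKD 1 and Sham 1 it was 0.86, 0.91, 0.77, 0.92, 0.83 and 0.78, with Hsp90b1 at 0.95. With Herpud1 it was -0.59 over 10 and -0.57 over 8 libraries. For Xbp1 the closest genes were Pggt1b, which encodes a subunit of a prenyltransferase (r = 0.98), the sialyltransferase gene St3gal6 (0.93) and Copb1, a subunit of the coat of Golgi transport vesicles (0.93). Over the 8 libraries these were in places 1, 13 and 2 (r = 0.98, 0.93 and 0.96).

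Relatives in other compartments gave a reference within each library. All 8 pairs were chosen after values were seen. Where a relative differed little between groups, its ratio largely repeated the difference of the member itself. Hspa8, the constitutive Hsp70 of the cytosol, averaged 454 ± 26.4 FPKM in the CKD and 475 ± 41.9 FPKM in the Sham mice (log2 -0.06, adjusted p = 0.673), and Hspa9, that of mitochondria, averaged 366 ± 9.00 and 369 ± 6.87 (log2 -0.01, adjusted p = 0.903). Hsp90ab1, the abundant cytosolic Hsp90, was at 639 ± 33.7 and 659 ± 89.5 FPKM (log2 -0.03, adjusted p = 0.892). Trap1, the mitochondrial Hsp90, was at 111 ± 7.26 FPKM in CKD mice and 122 ± 8.89 FPKM in Sham mice, a difference of -0.14 (unadjusted p = 0.0502, adjusted p = 0.257), so as a reference it was itself lower in CKD on average. The log2 ratio of Hspa5 to Hspa8 was -0.63 ± 0.10 in CKD and -0.45 ± 0.17 in Sham, a difference of -0.18 (SE 0.09, exact two-sided permutation p = 0.0794, adjusted over 8 ratios p = 0.127). That of Hspa5 to Hspa9 differed by -0.23 (exact permutation p = 0.0794, adjusted p = 0.127) and that of Hsp90b1 to Hsp90ab1 by -0.17 (exact permutation p = 0.0476, adjusted p = 0.127). Without CKD 1 and Sham 1 these 3 differences were -0.21, -0.30 and -0.17 (exact permutation p = 0.0857, 0.0857 and 0.0571, adjusted p = 0.137 each). None of the 8 ratios passed, and all 8 had overlapping groups with all 10 libraries; the smallest p that 5 against 5 allows is 0.00794.

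The widest ratio difference was that of Sdf2l1 to its ER relative Sdf2. It averaged -2.996 in CKD (SD 0.35) and -2.61 in Sham (SD 0.10) on the log2 scale. The difference of -0.38 had an exact permutation p = 0.0556 (SE 0.16, adjusted p = 0.127). When CKD 1 and Sham 1 were dropped it was -0.53 and the groups did not overlap, as was the case for Pdia6 to Pdia3, another ER disulfide isomerase (-0.24; exact permutation p = 0.0286 for both, the smallest that 4 against 4 allows, adjusted p = 0.114). Calr to Canx (0.08, exact permutation p = 0.492), Hsp90b1 to Trap1 of mitochondria (-0.07, p = 0.468) and Herpud1 to Herpud2 (0.03, p = 0.817) differed by less than their SD in Sham. Their adjusted p were 0.562, 0.562 and 0.817, and only Hsp90b1 to Trap1 differed by more than its SD in CKD (0.06). In the same order, the differences were 0.06, -0.13 and 0.10 without CKD 1 and Sham 1 (exact permutation p = 0.429, 0.229 and 0.657, adjusted p = 0.490, 0.305 and 0.657).

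**Figure D4:**
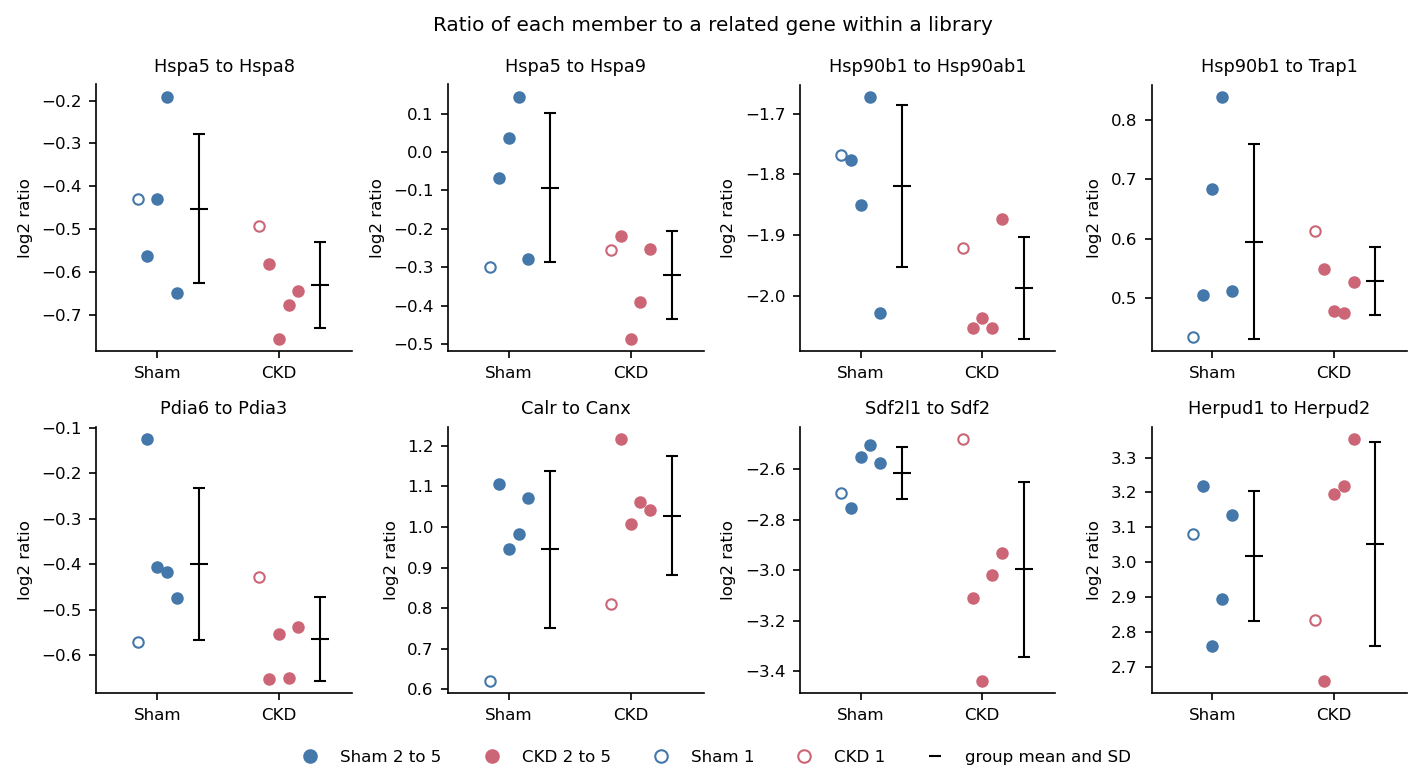
Log2 ratio of FPKM + 0.5 of a member to a related gene in each library (points; open for CKD 1 and Sham 1), with the group mean and SD (n = 5); the vertical axes differ and do not start at 0. In all 8 panels the groups overlap, and for Sdf2l1 to Sdf2 and Pdia6 to Pdia3 the overlap comes from CKD 1 or Sham 1.

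The rest of the ER pathway was taken from 7 lists of textbook function with 191 tested genes in all. Of these, 2 rose and 0 fell in limma, where 3.17% and 2.12% of all tested genes did. At an unadjusted p under 0.05, 14 of the 191 passed, 6 of them lower, where 10.5% of all tested genes were higher and 9.03% lower. The joint median of the 191 was 0.02. Without CKD 1 and Sham 1, 2 of the 191 rose and 1 fell, where 2.62% and 2.14% of all tested genes did. With a term for those libraries 3 rose and 4 fell, where 4.92% and 4.11% of all tested genes did. Together with 2 further lists of chaperones outside the ER, 237 genes were tested, of which 3 rose and 1 fell with all 10 libraries. Of the sensors, Ern1, which encodes IRE1, averaged 5.26 ± 0.638 FPKM in CKD mice and 5.18 ± 0.764 FPKM in Sham mice (log2 0.02, adjusted p = 0.944), with a negative sign under 5 of the alternatives. Eif2ak3, which encodes PERK, was at 3.90 ± 0.320 and 3.55 ± 0.190 (log2 0.12, adjusted p = 0.420). Atf6 was at 30.1, 29.4, 30.1, 29.2 and 32.2 FPKM in CKD 1 to 5 and 29.7, 26.8, 24.7, 26.4 and 24.2 in Sham 1 to 5. Sham 1 alone reached into the CKD range of Atf6. The difference was 0.20 (SE 0.06, adjusted p = 0.0905), and it passed without CKD 1 and Sham 1 (log2 0.24, adjusted p = 0.0391) and with a term for them (adjusted p = 0.0463).

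Among the factors below the sensors, Atf4, the effector of PERK, averaged 63.6 ± 4.76 FPKM in CKD mice and 57.7 ± 8.71 FPKM in Sham mice (log2 0.15, adjusted p = 0.439). Ddit3, which encodes the stress factor CHOP, was at 33.4 ± 6.95 and 28.1 ± 5.10 FPKM (log2 0.24, adjusted p = 0.401). Chac1, an ATF4 and CHOP target that breaks down glutathione, was the 1 gene of the 21 tested sensors and factors that passed. It had 7.197, 8.12, 6.07, 6.34 and 8.83 FPKM in CKD 1 to 5 and 4.27, 5.89, 4.26, 5.87 and 4.22 in Sham 1 to 5, so that every CKD mouse was above every Sham mouse. Chac1 rose 1.45-fold (log2 0.53, SE 0.13, adjusted p = 0.0330), but it missed the threshold when any of 6 single libraries was dropped, CKD 1, CKD 2, CKD 5, Sham 1, Sham 3 and Sham 5 (adjusted p of 0.0517 to 0.0881), when CKD 1 and Sham 1 were dropped together (0.0971), and when low genes were kept in (0.0553). The list's median was 0.05, with 15 of 21 differences above 0.

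Of 20 other ER chaperones and cochaperones none passed, with a median of -0.02, 12 differences below 0 and 8 above. At an unadjusted p under 0.05, 3 were lower and none higher, where 9.03% and 10.5% of all tested genes were. These were Calr3 (log2 -0.28, adjusted p = 0.0870 in limma), Hyou1 (-0.26, adjusted p = 0.112) and Tor1a (-0.20, adjusted p = 0.249). The 26 ER oxidoreductases and prolyl isomerases had a median of 0.09, and 19 of them had a positive difference. Qsox1, a sulfhydryl oxidase of the secretory pathway, was the 1 that passed. It had 29.8 to 32.8 FPKM in the CKD and 23.1 to 26.0 FPKM in the Sham mice, without overlap. Qsox1 rose by 0.32 on the log2 scale (SE 0.05, adjusted p = 0.00607), and was called in all 22 alternatives. None of the 31 genes of ER-associated degradation (0 at an unadjusted p under 0.05), the 26 of translocation (1), the 27 of N-glycosylation (1) or the 40 of ER to Golgi transport (1) passed in limma, and their medians were 0.0044, 0.0037, 0.05 and 0.01.

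Outside the ER, 1 of 32 cytosolic heat shock genes rose and none fell, where 3.17% and 2.12% of all tested genes did. Hspb7, a small heat shock protein of heart and skeletal muscle, rose 1.28-fold, from 1661 ± 123 to 2129 ± 81.0 FPKM (log2 0.36, SE 0.05, adjusted p = 0.00351). Of 14 mitochondrial chaperones and proteases, Hspd1, the Hsp60 chaperonin, had 195, 186, 190, 194 and 188 FPKM in CKD 1 to 5 and 213, 218, 227, 219 and 217 FPKM in Sham 1 to 5, so the groups did not overlap. Hspd1 fell by 0.20 on the log2 scale (SE 0.04, adjusted p = 0.0104). Both calls held in all 22 alternatives. The fall of Hspd1 and the median difference of the 9 ER genes were of the same size on the log2 scale, and the spreads were not: 0.154% of the tested genes were less variable within groups, against 34.1% to 90.3% for the 9.

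**Figure D5:**
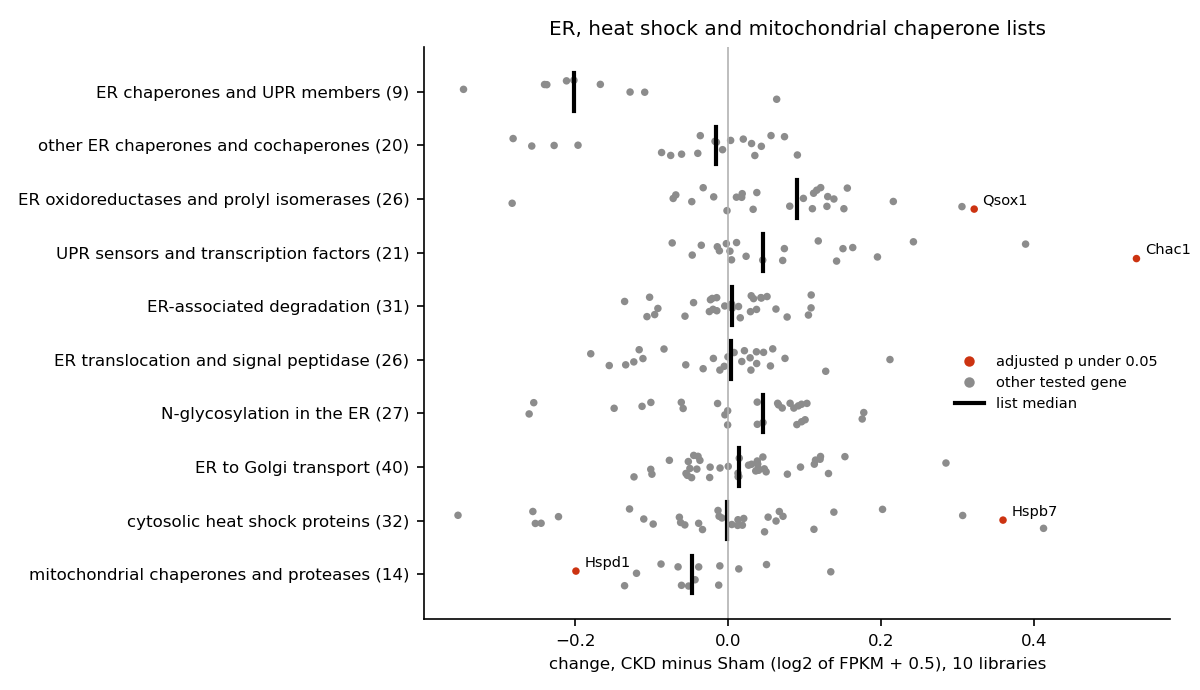
Difference between CKD and Sham (log2 of FPKM + 0.5, horizontal axis) of each tested gene in the 9 ER chaperone and unfolded protein response genes and in 9 further lists, with the number tested in parentheses; black bars are list medians and red points passed at an adjusted p under 0.05. The 9 genes have the lowest median, -0.20, none of them is red, and the 4 red points are Qsox1, Chac1, Hspb7 and Hspd1.

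Other genes with the same elements were compared as well. Of 49 genes with either element in a promoter, 22 were tested. The 16 that are not among the 10 genes had a median of -0.0048 with 8 differences on each side of 0. None of them passed with all libraries or without CKD 1 and Sham 1. At an unadjusted p under 0.05, 1 of the 16 was lower (Spats2l), where 9.03% of all tested genes were lower and 10.5% higher. The 16 included the cochaperones Creld2 (log2 -0.02), Dnajc3 (-0.04) and Dnajb11 (0.02) and the ligase gene Syvn1 (0.0039). The 6 among the 10 genes had a median of -0.21, with 5 differences below 0 and 1 above (Herpud1, 0.06). Those of the 10 without either element also had negative differences. These were Sdf2l1 (-0.35), Dnajb9 (-0.17), Xbp1 (-0.11) and the entry with Pdia4 (-0.09). Without CKD 1 and Sham 1, the medians of the 16 and of the 6 were -0.05 and -0.26.

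Of the marker lists of cell types that the ventricle could hold, those of fibroblasts and macrophages had genes that passed. Over all tested genes, 3.17% rose and 2.12% fell in limma, and 10.5% were higher and 9.03% lower at an unadjusted p under 0.05. Of 13 fibroblast markers 7 rose and none fell, with a summed level of 1285 to 1387 FPKM in Sham and 1404 to 1601 FPKM in CKD. Of 13 tested macrophage markers 6 rose and none fell, with a summed level of 278 to 339 FPKM in Sham and 395 to 573 FPKM in CKD. Plasma and B cell markers summed to between 6.87 and 13.1 FPKM in any library, and 10 of 13 had a mean under 1 FPKM. None of the 3 tested passed (1 at an unadjusted p under 0.05, lower). Nor did any of 4 tested neutrophil and T cell markers (1, higher) or of 12 smooth muscle and pericyte markers (5, 2 of them lower). None of 12 tested cardiomyocyte markers (2 at an unadjusted p under 0.05, 1 of them lower) and none of 13 endothelial markers (1, higher) passed in limma. Without CKD 1 and Sham 1, 6 fibroblast and 4 macrophage markers rose, 1 cardiomyocyte marker rose and 1 fell, and 1 smooth muscle or pericyte marker rose. In that fit 2.62% of all tested genes rose and 2.14% fell. The part of cell composition in the values of the ER genes was not tested.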

How the data were processed

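RNA sequencing of the left ventricle gave 1 library per mouse for 5 CKD and 5 Sham mice, grouped by the labels' surgery entry. The authors deposited FPKM values in a single table with 1 column per library. STAR 2.4.0f1, Cufflinks 2.1.1, Cuffdiff 2.1.1, mm10 and hg19 appear in the submitters' processing notes, with no role stated; no source used here gives the annotation or the use of strand. Reads per gene cannot be had from FPKM, so precision rests on the spread between mice. From steps among FPKM of at most 0.2, the relative depth of 7 libraries was 0.904 to 1.14 times that of Sham 2; CKD 1 and Sham 1 gave no such step.

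Values were taken as log2(FPKM + 0.5), and genes averaging under 1 FPKM over the libraries were set aside. Differences and folds are on this scale, which understates changes of low genes. CKD and Sham were compared with limma 3.58.1 in R 4.3.3 (lmFit, eBayes with trend); tests were two-sided, p-values were adjusted by Benjamini-Hochberg over the 11651 genes left, and 0.05 was the threshold. The script was checked on simulated data in which no library stood apart, so that check does not cover the effect of CKD 1 and Sham 1. Ratios of related genes were compared by exact permutation in Python 3.11.15; these pairs, and the whole promoters printed, were chosen after values were seen. Promoters and positions are RefSeq's for GRCm38.p6, the assembly mm10 denotes; overlapping genes are from the GENCODE annotation of GRCm38. The members and lists were chosen with earlier results of these data known. Genes were named if they were members, called in a list (at most 5, or else the 4 largest changes), 1 of 5 fixed sensors and factors, or among the 3 most correlated with Hspa5 or Xbp1. Calr3, Hyou1, Tor1a, Spats2l, the relatives and the ERSE cochaperones were named after their values were seen.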

Additional observations from a re-analysis of the deposited data

Results flagged for a closer look

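Among 80 groups of 5 libraries checked for a single value far from the other 4, 2 had one, where chance gives about 1 in 20 groups. Hspa9, the mitochondrial Hsp70, was at 356 FPKM in Sham 2 against 371 to 373 FPKM in the other Sham libraries. Sdf2, the ER relative of Sdf2l1, was at 49.6 FPKM in Sham 1 against 41.7 to 43.5 FPKM in the other 4. Sham 1 is one of the pair of libraries that stand apart, and the Sdf2l1 to Sdf2 ratio is given with and without it.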

How the results depend on the processing

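Of the 220 refits of the 10 genes (22 each), 207 kept direction and side of the threshold, 11 moved a negative difference past the threshold, and 2 reversed. The number of the 9 genes called lower was 0 with all libraries, 3 when CKD 1 and Sham 1 were both dropped, 1 with a term for them, 4 with sample weights, and 0 to 2 when 1 library was left out. The median of the 9 ranged from -0.24 to -0.15 when 1 library was left out. In the 9 wider lists, 3 genes rose and 1 fell; 5 rose with robust eBayes, 6 rose and 9 fell with sample weights, 6 rose and 7 fell with the term, 3 fell without both libraries, and 2 to 4 rose and 1 to 2 fell when 1 library was left out. Over all genes, 369 rose and 247 fell; 573 and 479 did with the term, 400 fell with sample weights, and leaving out 1 library gave 201 to 384 and 131 to 290. Reversals, of differences near 0, were as follows. Herpud1 was -0.0069 without Sham 3 and -0.0033 without Sham 4 (0.1907 at most, without CKD 2). Ern1 was -0.0080 with sample weights and -0.0014 when both libraries were dropped, and ranged from -0.0515 to 0.0869 with 1 left out, -0.0137 and -0.0163 among them. Hspa9 was 0.0312 under quantile normalization and 0.0016 when both were dropped. Hsp90ab1 ranged from -0.1251 to 0.0079 with 1 left out, Herpud2 from -0.0367 to 0.0690 (-0.0070 without Sham 4), and the log2 ratio of Herpud1 to Herpud2 from -0.0412 to 0.1327 (-0.0304, -0.0071 and -0.0018 among them). The cause was not tested, beyond fewer libraries where some are left out. The term was added after the data were seen. The labels pair no mice, so no block was fitted. FPKM hides read numbers, so counting error is not separated from the spread between mice.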
